A study of Homo sapiens with 63 samples.

Results

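Vehicle-treated HEK293T cells harvested at 12 h were compared with vehicle-treated cells harvested at 6 h, across every gene that could be tested. The 6 libraries concerned, 3 per time, were chosen by their labels (DMSO at 12 h and DMSO at 6 h) out of the 63 libraries of the study. HEK293T is an established line from human embryonic kidney that carries the large T antigen of a simian virus, and in this study it also carried an ectopic Halo tag. The other 6 arms of the study received ibuprofen or ibufenac as a bolus, as a photocaged form or as a probe, and all arms have 3 libraries at each of 6, 12 and 18 h. For the light-releasable precursors the design gives a treatment of 2 h at 10 µM, then washing and light at 365 nm for 3 min. The labels do not say whether the DMSO cells received light, washing or the same amount of solvent as the drug arms, nor from which event the hours are counted. Whether the 3 replicates came from different cultures is also not stated, and the spread behind each p-value may therefore be technical. Library numbers run in 1 block per time, and what the numbers stand for is not stated, so harvest time and whatever follows that numbering cannot be told apart.

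The comparison asks how transcript levels moved over 6 h of culture in cells that received no drug. The transcription factor p53 is held low by MDM2, a ubiquitin ligase that is itself switched on by p53, and it drives genes for cell cycle arrest (CDKN1A), death receptors (FAS, TNFRSF10B), DNA repair (DDB2, XPC) and metabolism (TP53I3, TIGAR). In HEK293T cells the large T antigen binds p53, and the protein is abundant. Dividing cultured cells also tune ribosome production, protein turnover and mitotic genes to nutrients and density. In bulk RNA, fewer cells of a kind and less RNA per cell cannot be told apart.

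The 6 DMSO libraries held 16.6 to 23.3 M counts, against 12.1 to 38.4 M over all 63 libraries. The share of counts in protein-coding genes was 75.7% to 78.2% at 6 h and 76.5% to 79.3% at 12 h, and transcripts of the mitochondrial genome took 0.26% to 0.36%. A count was recorded for 21140 to 21615 genes at 6 h and for 22031 to 22428 at 12 h, and these ranges did not overlap. The labelled cell type was checked on marker lists. The 8 HEK293 lineage markers summed to 431 to 457 CPM (counts scaled to a library of fixed size) at 6 h and to 550 to 565 CPM at 12 h. Most of this sum was the vimentin gene VIM, at 319 to 417 CPM over the 6 libraries. The lowest members were PAX2, at 0.0 to 0.552 CPM, and LHX1, at 0.736 to 2.4 CPM. The sum is therefore a weak check of the cell type. The 11 hepatocyte markers summed to 9.87 to 11.3 CPM over the 6 libraries, with APOB, TTR, SERPINA1 and FGA at 0 in each. The 8 fibroblast markers summed to 6.1 to 7.82 CPM and 6.86 to 7.88 CPM, with COL1A2 and DCN at 0. The 8 blood cell, 6 epithelial and 6 endothelial markers stayed under 5 CPM in sum in each library, with PTPRC, HBB, CD3E, KRT5, KRT14 and CLDN5 at 0.

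Of 19352 tested genes, 739 (3.82%) differed between 12 h and 6 h at an adjusted p below 0.05 in edgeR's quasi-likelihood test. Of these, 453 (2.34% of tested genes) were higher at 12 h and 286 (1.48%) were lower. The higher genes moved further than the lower ones, with a median log2 difference of 0.58 against −0.30, and the median over all tested genes was −0.01. At least 2-fold differences were seen for 92 higher and 2 lower genes, and at least 1.5-fold ones for 219 and 6. The 2 lower genes, H2BFS and AC010096.1, were picked out after their values were seen and had 0.51 and 0.38 CPM at 6 h and 0.0 CPM at 12 h, so their fitted differences are no measure of size. The higher genes had a median transcript length of 1594 bases and the lower ones 965, against 1066 over all tested genes. With trends in GC content and length removed, 672 of the 739 calls remained, although the split then became 510 higher and 654 lower. The number of calls fell without any single library, to 529 without 6 h replicate 1, 347 without 6 h replicate 2, 370 without 6 h replicate 3, 496 without 12 h replicate 1, 303 without 12 h replicate 2 and 382 without 12 h replicate 3.

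**Figure D1:**
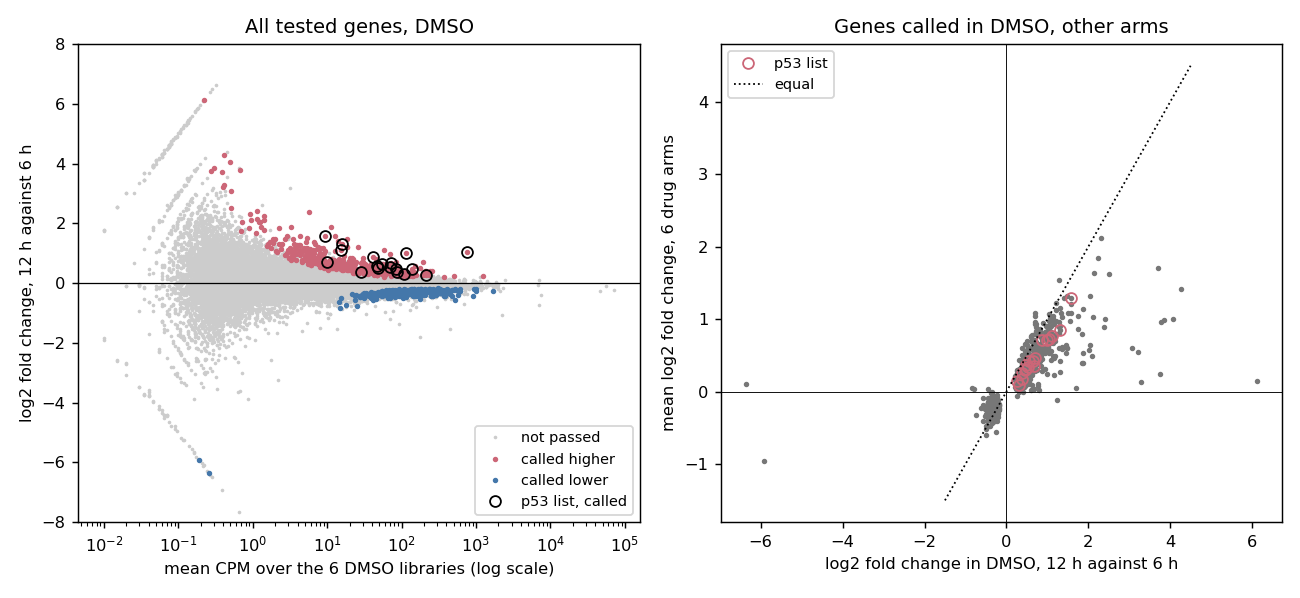
Left, log2 difference between DMSO cells at 12 h and 6 h (y axis) against mean CPM over the 6 DMSO libraries (x axis, log scale) for each tested gene, with the 453 called higher genes in red, the 286 called lower genes in blue and the called members of the p53 list circled. Right, for the 739 called genes, the DMSO difference (x axis) against the mean of the same difference over the 6 drug arms (y axis), with equality dotted. Most points lie in the upper right or lower left quadrant, and those of the p53 list lie under the dotted line.

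The p53 targets were the group with the highest share of called members. This list, like the others, was chosen with earlier results of these data known, so its direction is no independent evidence. Of the 27 listed genes, all tested, 18 rose, none fell and 9 did not pass, against 2.34% of all tested genes called higher. The median log2 difference was 0.47, and 25 of the 27 values were positive. Without single DMSO libraries the count was 14 to 17, and 14 of the 18 genes kept their call in each of those 6 fits. The calls of PPM1D, PLK2, CCNG1 and TIGAR did not, with highest adjusted p-values of 0.14, 0.149, 0.219 and 0.26 when 6 h replicate 3 (PPM1D), 12 h replicate 2 (PLK2) or 6 h replicate 2 (CCNG1 and TIGAR) was left out.

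MDM2 (chr12:68808176-68850686 in GENCODE release 29, GRCh38), the ubiquitin ligase that degrades p53, had 526, 506 and 479 CPM in the 3 libraries at 6 h and 950, 1088 and 1040 CPM at 12 h. The groups did not overlap, and the level was 2.04-fold higher at 12 h (log2 1.03 ± 0.08 SE, adjusted p = 1.48e-13, edgeR). CDKN1A (chr6:36676460-36687339), which encodes the cyclin-dependent kinase inhibitor p21, had 77.2, 80.1 and 70.6 CPM at 6 h and 151, 161 and 143 CPM at 12 h. Its level rose in every library pair that can be formed (log2 1.00 ± 0.08, adjusted p = 3.61e-12, edgeR). These were the smallest and, jointly with MIR34AHG, the second smallest adjusted p-values of all genes. MDM4, the partner of MDM2 that also restrains p53, had 155 ± 10.5 CPM (SD, n = 3) at 6 h and 166 ± 10.0 CPM at 12 h and did not pass (log2 0.10, adjusted p = 0.704, edgeR). MDM4 was added after its values were seen.

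**Figure D2:**
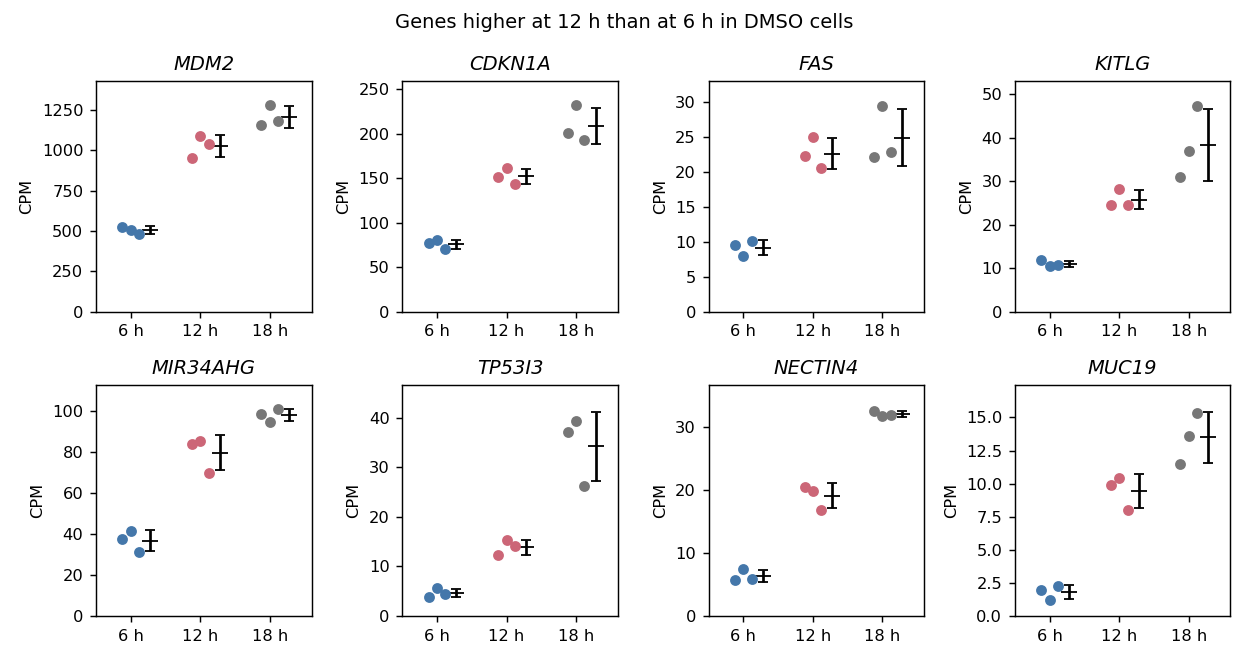
CPM (y axis) of 8 genes called higher at 12 h, for the 3 DMSO libraries at 6, 12 and 18 h (points), with the mean and SD beside them. In each panel the 3 points at 12 h lie above the 3 at 6 h, as with 479 to 526 CPM against 950 to 1088 CPM for MDM2.

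Among the listed p53 targets were genes of cell death. FAS (chr10:88990582-89015785), a death receptor of the cell surface, had 9.55, 7.94 and 10.1 CPM at 6 h and 22.3, 25.0 and 20.6 CPM at 12 h (log2 1.30 ± 0.12, adjusted p = 1.35e-10, edgeR). ACTA2, the smooth muscle actin gene that overlaps FAS on the opposite strand, rose from 9.6 ± 1.04 to 26.8 ± 6.47 CPM (log2 1.48 ± 0.15, adjusted p = 1.81e-09, edgeR). The counting strand is not given, so reads of the FAS and ACTA2 overlap cannot be told apart. TNFRSF10B, the TRAIL receptor DR5, had 117, 123 and 112 CPM at 6 h and 162, 160 and 161 CPM at 12 h, with no overlap (log2 0.46 ± 0.05, adjusted p = 4.05e-08, edgeR). Outside that list, and picked after their values were seen, TNFRSF10D, a decoy TRAIL receptor, rose by a log2 of 0.62 and EDA2R, the ectodysplasin receptor, by 1.16. TNFRSF10C, another decoy receptor, had under 1 CPM in each library and did not pass (log2 1.31 ± 1.22, adjusted p = 0.662, edgeR). APAF1, the scaffold of the apoptosome, rose from 62.5 to 95.6 CPM (log2 0.61 ± 0.08). The mitochondrial death genes of the list did not pass. BAX had 35.0, 44.6 and 43.6 CPM at 6 h and 52.8, 49.4 and 46.6 CPM at 12 h (log2 0.27 ± 0.16, adjusted p = 0.435, edgeR), and BBC3, which encodes PUMA, had a log2 difference of −0.07 ± 0.33 with overlapping groups.

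TP53I3, a quinone oxidoreductase gene, showed the steepest rise on the p53 list, from 3.86, 5.61 and 4.43 CPM at 6 h to 12.3, 15.3 and 14.1 CPM at 12 h (log2 1.58 ± 0.20, adjusted p = 3.37e-07, edgeR). SPATA18, which acts in mitochondrial quality control, rose from 9.72 to 21.1 CPM (log2 1.12 ± 0.14). TP53INP1, a stress-induced cofactor of p53, rose by a log2 of 0.87 and ZMAT3, an RNA-binding protein gene, by 0.65. Genes of DNA repair and nucleotide supply also rose. DDB2, a sensor of ultraviolet damage, had 52.8, 65.1 and 52.0 CPM at 6 h and 84.4, 82.8 and 80.5 CPM at 12 h (log2 0.54 ± 0.07, adjusted p = 5.22e-07, edgeR). XPC, its partner in nucleotide excision repair, rose by a log2 of 0.38, POLH, a bypass polymerase, by 0.67, and RRM2B, a ribonucleotide reductase subunit, by 0.47. BTG2, an antiproliferative gene, rose by 0.56 and SESN1, a stress-induced inhibitor of growth signalling, by 0.49 (39.5 to 55.4 CPM). The members that did not pass were BAX, BBC3, AEN, FDXR, GADD45A, PHLDA3, PLK3, SESN2 and TRIAP1. Of these, FDXR, an electron-transfer enzyme gene, had 15.8, 19.6 and 19.9 CPM at 6 h and 32.2, 26.2 and 27.2 CPM at 12 h (log2 0.63 ± 0.25, adjusted p = 0.162, edgeR).

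**Figure D3:**
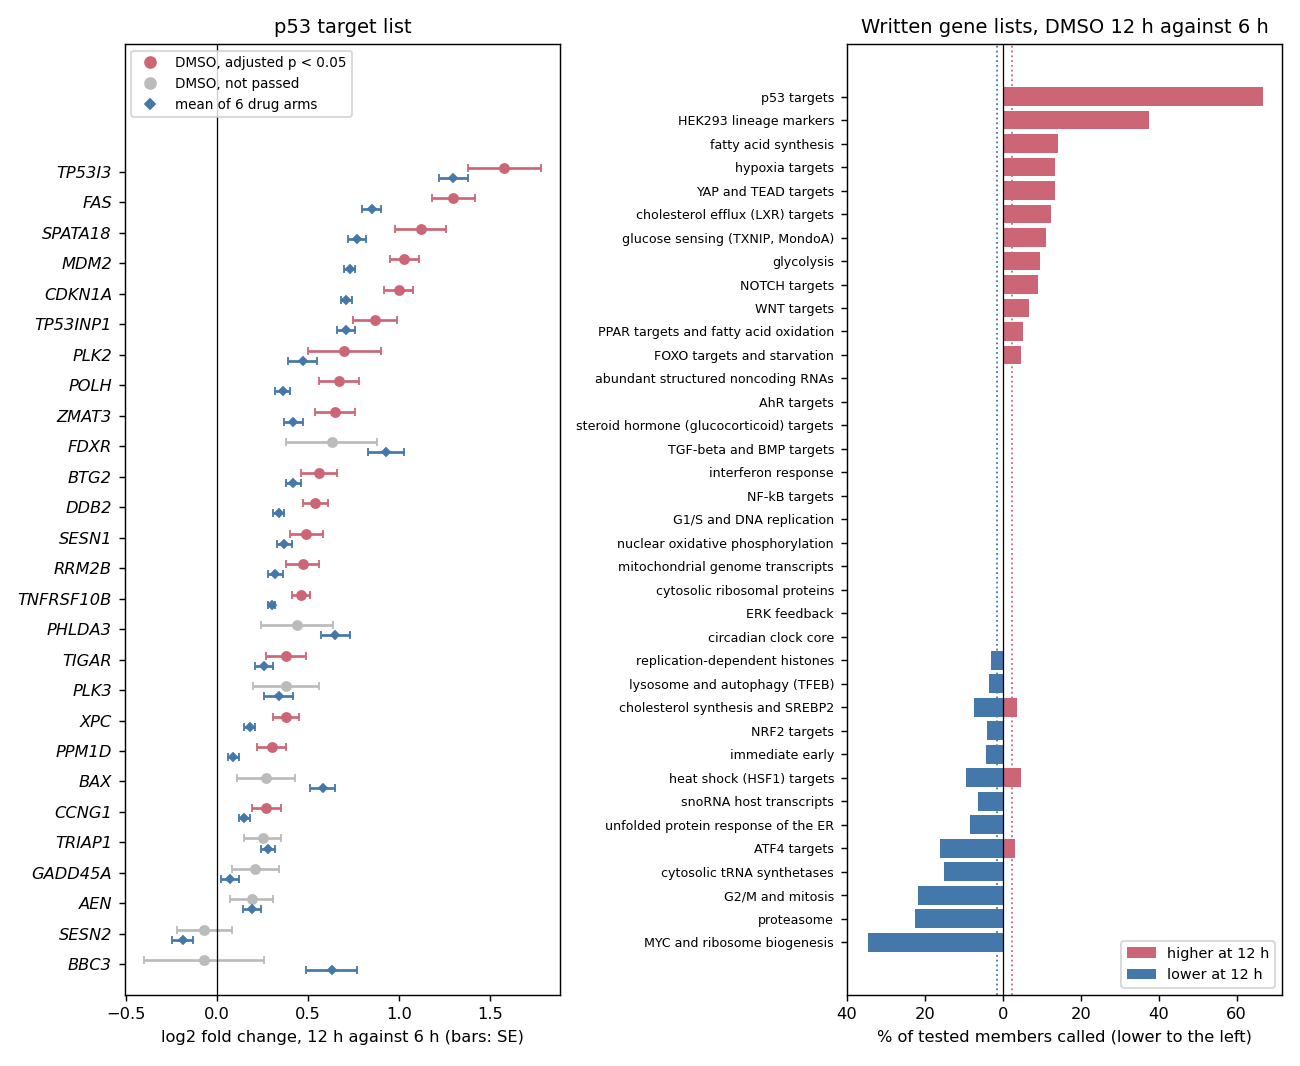
Left, log2 difference between 12 h and 6 h (x axis, bars are SE) for the 27 p53 targets (y axis) in DMSO cells (circles, red where the adjusted p was under 0.05) and as the mean of the 6 drug arms (diamonds). Right, percentage of tested members called higher (red, to the right) or lower (blue, to the left) for each list with at least 8 tested members, with dotted lines at the shares of all tested genes, 2.34% and 1.48%. The p53 bar, 18 of 27 genes, extends furthest to the right.

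A further list of 66 p53 targets was written after the values had been seen, and its direction is no independent evidence either. Of its 64 tested members 29 rose and none fell, against 2.34% of all tested genes called higher, with a median log2 difference of 0.40. MIR34AHG (chr1:9148011-9198906), the host transcript of the p53-induced microRNA miR-34a, had 37.6, 41.3 and 31.4 CPM at 6 h and 84.0, 85.6 and 70.0 CPM at 12 h (log2 1.12 ± 0.10, adjusted p = 3.61e-12, edgeR). KITLG (chr12:88492793-88580851), the ligand of the KIT receptor, had 11.9, 10.5 and 10.8 CPM at 6 h and 24.5, 28.2 and 24.6 CPM at 12 h (log2 1.22 ± 0.12, adjusted p = 6.5e-10, edgeR). For both genes the time points were well apart. PURPL, a long noncoding RNA that lowers p53 levels, had 15.7, 16.6 and 14.4 CPM at 6 h and 35.3, 35.7 and 37.2 CPM at 12 h (log2 1.21 ± 0.14, adjusted p = 1.84e-08, edgeR). INPP5D, a lipid phosphatase gene, rose from 4.52 to 9.99 CPM, and E2F7, a repressor of cell cycle genes, from 57.1 to 80.8 CPM. RPS27L, a ribosomal protein paralogue that p53 induces, rose from 45.8 to 67.1 CPM.

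The promoter of PURPL is shown because it was among the few that hold a full pair of p53 half-sites. It is the stretch of 250 bases before the RefSeq start (GRCh38.p14, chr5:27472042-27472291, plus strand), with the adjoining half-sites in capitals, the first base of which lies 127 bases before the start:
PURPL: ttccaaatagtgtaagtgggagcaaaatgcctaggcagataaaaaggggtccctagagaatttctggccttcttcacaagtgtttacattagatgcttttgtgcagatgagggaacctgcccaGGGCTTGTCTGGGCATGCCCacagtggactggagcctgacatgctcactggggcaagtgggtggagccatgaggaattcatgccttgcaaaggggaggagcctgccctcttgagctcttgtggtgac
Among 12540 tested genes with a RefSeq promoter, 5 (0.0399%) held such a pair, searched on both strands with a spacer of 0 to 13 bases. PURPL, LNCTAM34A, a noncoding RNA at the miR-34a locus, and MCC were called higher, with log2 differences of 1.21, 1.18 and 0.41. Over all tested genes 2.34% were called higher. DYNC2H1 and PTCHD4 did not pass, and 5 genes are too few for a comparison. LNCTAM34A, at a mean of 1.77 CPM, lies opposite MIR34AHG, at 58.3 CPM, and with the counting strand not given their reads cannot be told apart. The same limit holds for other reported genes that overlap a gene on the opposite strand. Among these pairs are TP53I3 and FAM228B, XPC and LSM3, GRHL3 and STPG1, C2orf88 and HIBCH, and MIR497HG and C17orf49. Further ones are POLH and GTPBP2, TP53INP1 and NDUFAF6, ABCA12 and SNHG31, GNL3 and PBRM1, FADS1 and FADS2, HARS1 and HARS2, and PSMC2 and DNAJC2. The calls of LNCTAM34A and MCC were lost in 3 of the 6 fits that left out a library, with highest adjusted p-values of 0.225 and 0.0656 without 12 h replicate 3 and 6 h replicate 1. At least 1 p53 half-site was present in 4.56% of the 12540 promoters, in 7.25% of the 345 matched higher genes, in 3.27% of the 245 matched lower genes and in 12.2% of the 74 matched genes of both p53 lists. In those lists the called genes PURPL, RPS27L, ABCA12 and PLK2 held it, and so did MR1, FDXR, RETSAT, RAP2B and AEN, which did not pass. MDM2, CDKN1A, FAS, MIR34AHG, KITLG and TP53I3 held none in this window. The search covered only the 250 bases before the RefSeq start, so a half-site elsewhere in or near these genes would be missed. Within the lists the matches in this window fell on called and other genes alike. Whether p53 sites separate them cannot be judged from so short a window.

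Outside the p53 lists, the largest rises fell on genes of low level. The rule took the 12 called genes in each direction with the largest difference, a mean of at least 1 CPM over both times and no overlap. It named TP53I3 and ABCA12 among them. Some genes, such as CD24, DRAXIN and KIAA1217, reached that mean only through their 12 h level. A large log2 difference is also reached more easily from a low level, and how far this sets these levels was not tested. MUC19 (chr12:40393395-40570832), a gel-forming mucin gene, had 1.96, 1.19 and 2.26 CPM at 6 h and 9.93, 10.4 and 7.99 CPM at 12 h (log2 2.39 ± 0.26, adjusted p = 7.9e-09, edgeR). NECTIN4 (chr1:161070995-161089599), a cell adhesion gene, had 5.75, 7.47 and 5.94 CPM at 6 h and 20.5, 19.9 and 16.8 CPM at 12 h (log2 1.57 ± 0.17, adjusted p = 4.25e-09, edgeR). CCN3, a secreted matrix protein gene, rose from 1.42 to 5.18 CPM, and GRHL3, an epithelial transcription factor gene, from 0.979 to 3.53 CPM. CD24, a surface glycoprotein gene, rose from 0.348 to 1.9 CPM, DRAXIN, an axon guidance gene, from 0.489 to 2.35 CPM, and ABCA12, a lipid transporter gene, from 0.641 to 2.21 CPM. KIAA1217 rose from 0.467 to 1.99 CPM. The remaining 3 were less firm. C2orf88 had 1.22, 0.285 and 0.133 CPM at 6 h and 2.08, 2.5 and 2.15 CPM at 12 h, and its call was lost without 6 h replicate 2 or 3 (highest adjusted p = 0.124). INSM1, a neuroendocrine transcription factor gene, rose from 0.549 to 2.01 CPM, with its call lost without 6 h replicate 2 or 3 (highest adjusted p = 0.0988). MIR497HG rose from 0.517 to 1.71 CPM and kept its call in 2 of the 6 fits (highest adjusted p = 0.114, without 6 h replicate 1).

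Several well-expressed genes of the cell surface and cytoskeleton also rose. They were picked after their values were seen. VCAN, the matrix proteoglycan versican, had 47.3, 49.1 and 45.7 CPM at 6 h and 87.3, 92.9 and 97.1 CPM at 12 h (log2 0.96 ± 0.11, adjusted p = 3.33e-08, edgeR). FAT1, a giant protocadherin, had 125, 120 and 124 CPM at 6 h and 175, 180 and 195 CPM at 12 h (log2 0.57 ± 0.06, adjusted p = 1.18e-09, edgeR). AHNAK, a giant scaffold protein, rose from 145 ± 5.55 to 239 ± 7.31 CPM (log2 0.72 ± 0.09). Among the 8 HEK293 lineage markers 3 rose, against 2.34% of all tested genes called higher. NEFL, a neurofilament gene, rose from 30.1 to 42.6 CPM, INA, another neuronal filament gene, from 20.2 to 27.9 CPM, and VIM, the mesenchymal filament vimentin, from 340 to 393 CPM. Each of these 3 calls was lost without 6 h replicate 2 (highest adjusted p-values 0.0684, 0.0977 and 0.0933), that of INA also without 12 h replicate 1 or 2 and that of VIM also without 12 h replicate 3. Of 15 YAP and TEAD targets, AXL and AMOTL1 rose, against 2.34% of all tested genes called higher. AXL, a receptor tyrosine kinase gene, was at 0.0363 CPM at 6 h and 0.771 CPM at 12 h, and AMOTL1, an angiomotin family gene, rose from 116 to 135 CPM. AXL lost its call without 6 h replicate 2 or 3 or 12 h replicate 2 (highest adjusted p = 0.0919), and AMOTL1 without 6 h replicate 2 or 12 h replicate 3 (highest adjusted p = 0.113). The matrix genes CCN1 and CCN2 of the same list did not pass (log2 −0.28 and −0.43).

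Calls among metabolic genes were spread over several lists. TXNIP, a glucose-responsive brake on glucose uptake, rose from 14.6 to 26.4 CPM (log2 0.85 ± 0.19, adjusted p = 0.00295, edgeR), while its paralogue ARRDC4 had a log2 difference of 0.14 (adjusted p = 0.774, edgeR). Of 21 tested glycolysis genes 2 rose, against 2.34% of all tested genes called higher. SLC2A3, a glucose transporter, rose from 4.54 to 10.4 CPM and ENO2, the neuronal enolase, from 15.7 to 27.9 CPM. Of 30 tested hypoxia targets 4 rose and none fell, against 2.34% of all tested genes called higher, with a median of 0.21 and 24 positive values: ENO2, the collagen hydroxylases P4HA1 and PLOD2 (log2 0.46 and 0.62) and PPFIA4 (0.80). ENO2 alone kept its call without each library, and the highest adjusted p-values of P4HA1, PLOD2 and PPFIA4 were 0.0984, 0.227 and 0.214, each without 6 h replicate 2. The classical hypoxia targets VEGFA and LDHA did not pass, with log2 differences of 0.14 in both. ABCA1, the cholesterol exporter, had 3.37, 4.9 and 3.68 CPM at 6 h and 8.28, 9.84 and 11.7 CPM at 12 h (log2 1.31 ± 0.24, adjusted p = 0.000321, edgeR). STARD4, a sterol carrier, rose from 21.7 to 34.9 CPM, and SLC30A1, the zinc exporter, from 26.3 to 39.7 CPM. Of the 27 genes of the sterol synthesis list, STARD4 rose, and CYP51A1 (log2 −0.23) and EBP (−0.34) fell. Over all tested genes 2.34% were called higher and 1.48% lower. HMGCS1 did not pass (0.07). The call of STARD4 held without each library. The calls of CYP51A1 and EBP were each lost in 5 of the 6 fits that left out a library (highest adjusted p-values 0.0929 without 12 h replicate 3 and 0.252 without 12 h replicate 2).

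Single members of other lists rose with less support. JAG1, a NOTCH ligand, rose from 8.16 to 13.7 CPM and lost its call without 6 h replicate 2 (adjusted p = 0.0691). PPARGC1A, a coactivator of mitochondrial genes, rose from 2.98 to 5.71 CPM and FADS1, a fatty acid desaturase, from 92.8 to 114 CPM. The desaturase SCD5 (log2 0.51) and the WNT pathway factor LEF1 (0.37) passed with all 6 libraries. Leaving out libraries took the calls of PPARGC1A (highest adjusted p = 0.208, without 6 h replicate 3) and FADS1 (0.0865, without 6 h replicate 2), and SCD5 and LEF1 passed in none of those 6 fits (highest adjusted p-values 0.173 without 6 h replicate 1 and 0.199 without 6 h replicate 3).

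The called falls were smaller and sat on abundant genes, whose median level was 116 CPM against 18.2 CPM for the higher genes and 9.77 CPM over all tested genes. A small difference passes more readily in a gene with many counts, and how far this sets these levels was not tested. TOMM20 (chr1:235109336-235128936), an import receptor of the mitochondrial outer membrane, had 644, 608 and 642 CPM at 6 h and 421, 416 and 440 CPM at 12 h (log2 −0.57 ± 0.07, adjusted p = 8.85e-08, edgeR). ACTB, the cytoplasmic actin gene often used as a reference, had 1049, 1081 and 1009 CPM at 6 h and 799, 760 and 747 CPM at 12 h (log2 −0.44 ± 0.08, adjusted p = 0.000135, edgeR). GAPDH, the other common reference, had 2020 ± 83.8 CPM and 1968 ± 34.4 CPM and did not pass (log2 −0.04 ± 0.08, adjusted p = 0.879, edgeR). SRPRB, a subunit of the signal recognition particle receptor, fell from 123 to 86.6 CPM (log2 −0.50), and TXNRD1, a thioredoxin reductase of the NRF2 list, from 180 to 135 CPM (log2 −0.42 ± 0.06, adjusted p = 5.78e-06, edgeR). RBM3, a cold-induced RNA-binding protein gene, had 442, 441 and 435 CPM at 6 h and 331, 318 and 330 CPM at 12 h (log2 −0.43 ± 0.06, adjusted p = 4.4e-07, edgeR). RBM3, like DDX21 further on, was picked after its values were seen.

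**Figure D4:**
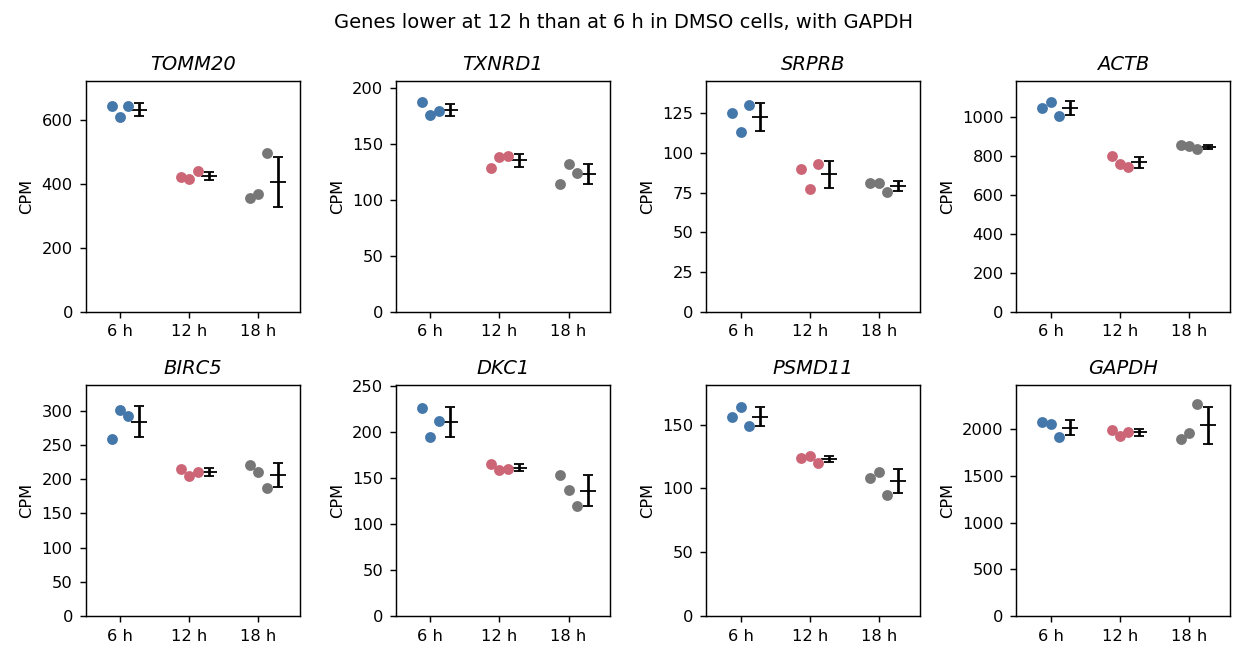
CPM (y axis, from 0) of 7 genes called lower at 12 h and of GAPDH, for the 3 DMSO libraries at 6, 12 and 18 h (points), with the mean and SD beside them. The 12 h points lie under the 6 h points in the 7 called genes, as with 608 to 644 CPM against 416 to 440 CPM for TOMM20, and overlap for GAPDH.

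The other genes with the largest falls averaged under the median level of the lower genes. CALCB, which encodes a calcitonin gene-related peptide, had 18.9, 24.6 and 23.4 CPM at 6 h and 15.5, 11.4 and 13.4 CPM at 12 h (log2 −0.73 ± 0.15, adjusted p = 0.0021, edgeR), and its call held without each library. MYDGF, a secreted growth factor gene, fell from 53.6 to 37.1 CPM and RDH13, a mitochondrial retinol dehydrogenase gene, from 28.1 to 19.1 CPM. Each lost its call without a single library, MYDGF without 6 h replicate 2 (adjusted p = 0.0619) and RDH13 without 6 h replicate 3 (adjusted p = 0.0557). The log2 differences were −0.83 for PTCD1, a mitochondrial RNA-binding protein gene, −0.78 for PUS1, a pseudouridine synthase gene, −0.62 for NUMBL, −0.57 for CCDC86, −0.51 for TMED7-TICAM2 and −0.50 for SMYD5. These 6 calls were lost in at least 3 of the 6 fits that left out a library. The highest adjusted p-values were 0.291 for PTCD1 (without 6 h replicate 3), 0.187 for PUS1 (12 h replicate 2), 0.154 for NUMBL (12 h replicate 3), 0.106 for CCDC86 (6 h replicate 2), 0.23 for TMED7-TICAM2 (12 h replicate 3) and 0.113 for SMYD5 (12 h replicate 3). PTCD1 and the read-through transcript TMED7-TICAM2 share exons with neighbours, and their counts depend on how the authors split reads.

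Genes for making ribosomes and for breaking down proteins were shifted downward by small amounts. Of 26 MYC targets and ribosome biogenesis genes 9 fell and none rose, against 1.48% of all tested genes called lower, and all 26 values were negative (median −0.25). DKC1, the pseudouridine synthase dyskerin, had 226, 194 and 211 CPM at 6 h and 165, 158 and 159 CPM at 12 h (log2 −0.39 ± 0.08, adjusted p = 0.00135, edgeR). NOP2, a ribosomal RNA methyltransferase, fell from 126 to 99.1 CPM, and GNL3, the nucleolar protein nucleostemin, from 364 to 292 CPM. The other 6 genes were WDR43, NOP14, POLR1A, PES1, NOP56 and NOP16, at log2 −0.18 to −0.49. DDX21, a nucleolar helicase outside the list, had 672, 635 and 650 CPM at 6 h and 477, 483 and 519 CPM at 12 h (log2 −0.40 ± 0.06, adjusted p = 5.8e-06, edgeR). MYC itself had 54.5 and 45.7 CPM and did not pass (log2 −0.26 ± 0.11, adjusted p = 0.207, edgeR). The list's count was 2 without 6 h replicate 1 or 12 h replicate 2, 4 without 6 h replicate 3 or 12 h replicate 3, 5 without 6 h replicate 2 and 6 without 12 h replicate 1. Of the 9 genes DKC1 alone kept its call in each of these fits.

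Of 31 proteasome subunits 7 fell and none rose, against 1.48% of all tested genes called lower, with a median of −0.22 and no positive value. PSMD11, a lid subunit, had 156, 164 and 149 CPM at 6 h and 124, 125 and 120 CPM at 12 h (log2 −0.35 ± 0.07, adjusted p = 0.000691, edgeR), and it alone of the 7 kept its call without each library. PSMC2, an ATPase of the base, fell from 125 to 101 CPM and PSMD1, another base subunit, from 229 to 192 CPM. PSMB2, PSMD3, PSMD14 and PSMD6 fell by log2 0.23 to 0.37. The count was 1 without 12 h replicate 3, 2 without 6 h replicate 1, 3 without 12 h replicate 2 and 4 without 6 h replicate 2, 6 h replicate 3 or 12 h replicate 1. Of 20 cytosolic tRNA synthetases FARSB, HARS1 and YARS1 fell, by log2 0.35, 0.29 and 0.21, against 1.48% of all tested genes called lower. Of the 20 values 19 were negative. None of the 3 calls held in each fit without a library, and the highest adjusted p-values were 0.088 and 0.187 without 6 h replicate 1 (FARSB and YARS1) and 0.0835 without 6 h replicate 2 (HARS1). None of the 71 tested ribosomal protein genes passed, against 3.82% of all tested genes called, and their median was −0.14.

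Mitotic genes fell in part. Of 37 G2/M genes 8 fell and none rose, against 1.48% of all tested genes called lower, with a median of −0.15. BIRC5, which encodes survivin, had 259, 301 and 293 CPM at 6 h and 215, 204 and 210 CPM at 12 h (log2 −0.44 ± 0.08, adjusted p = 0.000285, edgeR) and kept its call without each library. The mitotic kinase PLK1 had 108, 117 and 124 CPM at 6 h and 86.3, 90.2 and 83.6 CPM at 12 h (log2 −0.42 ± 0.11, adjusted p = 0.0148, edgeR). CCNB1, the mitotic cyclin B1, fell from 187 to 154 CPM, KIF23, a motor of cytokinesis, from 115 to 93.1 CPM, and UBE2C, CDC20, AURKA and BUB1B by log2 0.37, 0.29, 0.29 and 0.28. These 7 calls were less firm: the list's count was 3 without 6 h replicate 1, 6 h replicate 2, 12 h replicate 2 or 12 h replicate 3, and 5 without 6 h replicate 3 or 12 h replicate 1. None of the 36 G1/S and DNA replication genes passed (median −0.07), against 3.82% of all tested genes called. Among them CCNE2 was at 52.7 and 52.9 CPM. Of 33 tested histone genes of the replication-dependent kind, H4C8 alone fell, against 1.48% of all tested genes called lower. H4C8 went from 207 to 145 CPM (log2 −0.52, adjusted p = 0.0255, edgeR), and it passed in none of the fits that left out a library (highest adjusted p = 0.114, without 12 h replicate 2). The list's median was −0.40 with 31 negative values.

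Promoters of the G2/M genes are known for a CCAAT box (CCAAT) close to a cell cycle homology region (TTTGAA), and 3 of the called genes are shown with both motifs, on either strand, in capitals. Each is the stretch of 250 bases before the RefSeq start on the plus strand of GRCh38.p14: KIF23 at chr15:69414099-69414348, PLK1 at chr16:23678639-23678888 and CDC20 at chr1:43358731-43358980.
KIF23: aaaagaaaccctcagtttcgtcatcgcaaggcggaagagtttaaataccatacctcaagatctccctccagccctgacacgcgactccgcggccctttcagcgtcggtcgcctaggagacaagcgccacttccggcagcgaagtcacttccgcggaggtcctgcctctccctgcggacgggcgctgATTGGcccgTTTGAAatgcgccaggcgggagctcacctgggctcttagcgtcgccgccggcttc
PLK1: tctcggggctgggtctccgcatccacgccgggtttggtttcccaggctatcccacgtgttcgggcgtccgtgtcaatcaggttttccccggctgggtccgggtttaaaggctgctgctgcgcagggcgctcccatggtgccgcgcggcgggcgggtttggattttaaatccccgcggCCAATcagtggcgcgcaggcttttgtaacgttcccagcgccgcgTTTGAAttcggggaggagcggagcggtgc
CDC20: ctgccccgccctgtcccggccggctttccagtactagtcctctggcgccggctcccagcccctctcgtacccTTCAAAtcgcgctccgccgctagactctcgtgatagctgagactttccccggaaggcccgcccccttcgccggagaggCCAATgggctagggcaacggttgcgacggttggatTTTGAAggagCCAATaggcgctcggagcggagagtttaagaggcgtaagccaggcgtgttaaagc
The CCAAT box was found in 81.2% of the 32 G2/M promoters, in 46.5% of the 245 matched lower genes, in 29.3% of the 345 matched higher genes and in 35.1% of all 12540. The cell cycle homology region was found in 56.2%, 8.57%, 10.1% and 8.53% of the same sets. A match is a description of these letters in this window and not a site of binding.

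Of 31 ATF4 targets 5 fell and 1 rose, against 1.48% and 2.34% of all tested genes. ATF4 itself, the transcription factor of amino acid stress, fell from 590 to 502 CPM (log2 −0.23 ± 0.06), MTHFD2, a folate enzyme gene, from 204 to 170 CPM, and TRIB3, a pseudokinase gene, from 35.1 to 27.8 CPM, and the amino acid transporters SLC3A2 and SLC7A1 fell by log2 0.43 and 0.35. GDF15, a stress hormone gene that p53 also induces, rose from 2.82 to 5.87 CPM. None of these 6 calls held without each library, and the highest adjusted p-values ran from 0.0791 (ATF4, without 6 h replicate 1) to 0.352 (TRIB3, without 6 h replicate 3). ASNS, asparagine synthetase, did not pass (129 and 112 CPM, adjusted p = 0.114, edgeR). Of 24 unfolded protein response genes XBP1 and MANF fell, from 127 to 106 CPM and from 52.8 to 40.0 CPM, against 1.48% of all tested genes called lower. Of 21 heat shock genes HSP90AB1 and DNAJB1 fell (log2 −0.19 and −0.26) and HSPA4L rose (0.30), against 1.48% and 2.34% of all tested genes. The autophagy gene GABARAPL1 (log2 −0.48), SNHG3 (−0.23), a host of small nucleolar RNAs, and SRF (−0.34), the serum response factor, also fell. The highest adjusted p-values on leaving out a library were 0.13 for XBP1 and 0.0789 for MANF (both without 6 h replicate 1), 0.336 for HSP90AB1 (6 h replicate 1), 0.201 for DNAJB1 (12 h replicate 2), 0.0554 for HSPA4L (12 h replicate 2), 0.217 for GABARAPL1 (12 h replicate 2), 0.163 for SNHG3 (12 h replicate 2) and 0.382 for SRF (6 h replicate 2).

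Lists of other clocks and switches of cultured cells gave few or no calls in edgeR, against 3.82% of all tested genes called. At that share a short list holds few calls, so an absence of calls does not show that its genes stayed level. None of the 18 clock genes passed, with log2 differences between −0.46 and 0.33 (median −0.08). PER2, a repressor of the clock, had 19.2 and 15.1 CPM (adjusted p = 0.219, edgeR), and PER1, PER3, NR1D1, NR1D2, DBP, CIART and BMAL1 had log2 differences of −0.19, 0.27, −0.22, −0.12, 0.12, −0.42 and 0.20. Apart from SRF, no immediate early gene passed, with FOS at 5.57 and 4.41 CPM and EGR1 at 4.17 and 2.93 CPM. No member of the lists of ERK feedback, NF-kB, interferon, TGF-beta and BMP, glucocorticoid, AhR, nuclear oxidative phosphorylation or mitochondrial genome genes passed, and HMOX1, HES1 and ID1 also did not pass (log2 −0.10, 0.21 and −0.22).

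At 18 h the same DMSO arm gave 1019 calls against 12 h (5.27% of tested genes), 370 higher (1.91%) and 649 lower (3.35%). This comparison shares the 12 h libraries with the one above, so values are set side by side only. Of the p53 list 11 rose and none fell between 12 h and 18 h (median 0.29). CDKN1A rose by a further log2 of 0.46 to 209 CPM and TP53I3 by 1.30 to 34.3 CPM, while MDM2 had 1205 CPM (log2 0.23, adjusted p = 0.0638, edgeR) and FAS 24.9 CPM (0.14, adjusted p = 0.566, edgeR). BAX, which did not pass at 12 h, rose by 0.83 and BBC3 by 1.09. KITLG reached 38.4 CPM and NECTIN4 32.1 CPM, whereas TOMM20 was at 406 CPM and ACTB at 848 CPM with no call. At 18 h the protein-coding share was 70.4% to 71.0%. The third library at 18 h stood apart in some metabolic genes, with 1042 CPM of LDHA against 556 and 532 CPM and 152 CPM of PLOD2 against 58.1 and 67.6 CPM.

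The 6 drug arms share no library with the DMSO arm and were compared between the same times. Averaged over these arms, 7481 genes (38.7% of those tested) were called between 12 h and 6 h, 4114 of them higher (21.3%) and 3367 lower (17.4%). Of the 453 genes higher in DMSO, 422 (93.2%) were among these higher genes, of which they made up 10.3%, and of the 286 lower genes 268 (93.7%) were among the lower ones, of which they made up 7.96%. None was called in the opposite direction in that mean, which hides differences between single arms. In the ibuprofen probe arm 2 of the 453 and 5 of the 286 were called in the opposite direction, and in the ibufenac probe arm 1 and 3. The bolus and photocaged arms had no opposite call. In single arms 33.3% to 63.1% of the 453 and 35.0% to 75.2% of the 286 were called in the same direction. Those arms had 443 to 2652 genes called higher and 544 to 2204 called lower. Against the mean of the bolus arms alone, where 2893 genes were called (14.9%, of which 7.23% higher and 7.71% lower among tested genes), the shares were 357 of 453 (78.8%) and 247 of 286 (86.4%). The p53 list gave 22 and 23 higher genes in the ibuprofen and ibufenac bolus arms, where 3.37% and 3.02% of tested genes were called higher. It gave 16 and 16 in the photocaged arms (2.57% and 2.29% of tested genes) and 14 and 10 in the probe arms (13.7% and 12.1%). In the ibufenac probe arm 4 members were called lower, against 11.4% of tested genes. MDM2 rose in all 6 arms, by log2 0.42 to 1.05, and CDKN1A by 0.19 to 1.07 with 5 of the 6 values called.

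**Figure D5:**
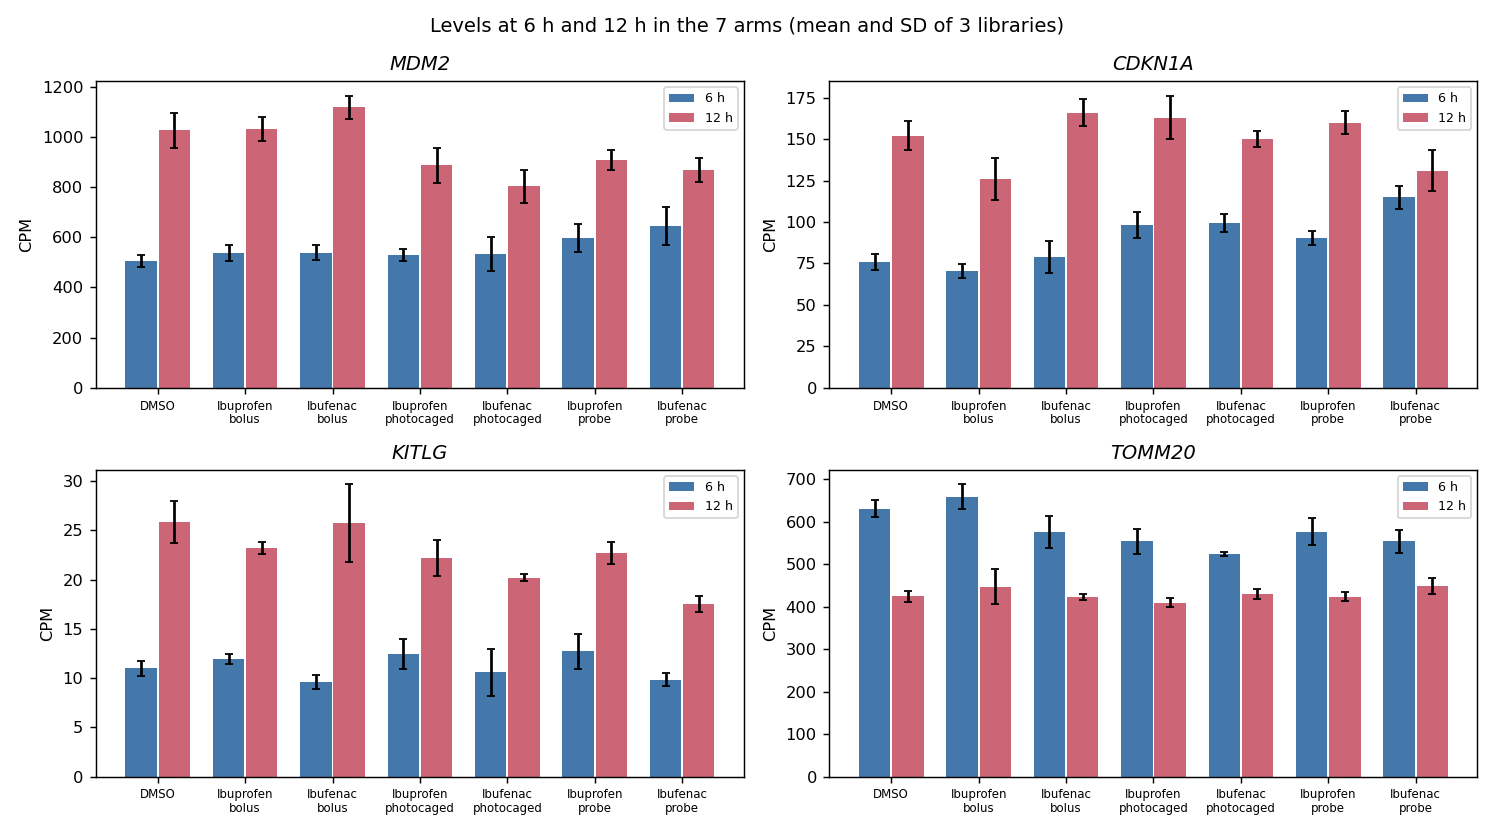
CPM (y axis, from 0) of MDM2, CDKN1A, KITLG and TOMM20 at 6 h (blue) and 12 h (red) in DMSO cells and the 6 drug arms (x axis), as mean and SD of 3 libraries. The 12 h bar is above the 6 h bar for MDM2, CDKN1A and KITLG and below it for TOMM20 in each of the 7 arms.

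The difference between arms was tested as an interaction. Between the time difference in DMSO and the mean of the bolus arms no gene was called by edgeR, with 1100 genes at an unadjusted p under 0.05, and 1 gene, the read-through transcript ARL2-SNX15, was called by DESeq2. The genes with the smallest p were AC068057.1 (log2 difference of differences 3.61), BOLA2-SMG1P6, XKR7, PI4KB and ADAMTSL5, and none passed. ACTA2, not among them, had 0.68 (adjusted p = 0.866, edgeR). An adjusted p that misses the threshold does not show that the arms moved alike. Against the mean of all 6 drug arms, 6 genes were called (0.031% of those tested), all with a higher value in DMSO, among them CTH, SLC7A11, MUC19, ACTA2 and SLC1A4. For the p53 list the median of this interaction was 0.15, and no member passed, with MDM2 at 0.30 (adjusted p = 0.328, edgeR) and CDKN1A at 0.29 (adjusted p = 0.373, edgeR). Without single DMSO libraries the count was 8 (6 h replicate 1), 1 (6 h replicate 2 or 12 h replicate 2), 2 (6 h replicate 3) or 3 (12 h replicate 1 or 3).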

How the data were processed

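Total RNA was sequenced with a stranded kit that depletes ribosomal RNA, per the labels' protocols. The authors deposited a table of expected counts, estimated per gene and not whole for 22.6% of values of 1 or more (tolerance 1e-06). The aligner, the counter, its strand setting and the build were not given in the sources used here. The deposited FPKM table was not used. Counts of 58336 gene entries were rounded to whole numbers. Of these, 41885 were named by current symbols and 16331 by GENCODE release 29 alone, which also gave gene coordinates (GRCh38), and 120 had no name. Promoter sequences are RefSeq's (GRCh38.p14).

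All 63 libraries in 21 groups entered 1 fit in edgeR 4.0.16 (R 4.3.3, limma 3.58.1): filterByExpr with a minimum count of 10, TMM factors of 0.908 to 1.11 and the quasi-likelihood test, with 42 residual degrees of freedom and Benjamini-Hochberg adjustment over 19352 genes. Differences are log2 fold changes of 12 h against 6 h, ± SE. Called means an adjusted p under 0.05. CPM used TMM-scaled library sizes. DESeq2 1.42.0 was an alternative. The scripts were checked on simulated data.

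Named genes were up to 12 per direction with the largest difference, a mean of at least 1 CPM and no overlap, up to 3 called members of each list, a set of fixed genes, the 5 genes with the smallest p of each interaction and the 5 of the comparison. The members and lists were chosen with earlier results of these data known. The further p53 list and the genes said in the text to be picked later were chosen after seeing values, as were 2 alternatives (protein-coding genes alone, and GC and length trends removed). Other alternatives were the libraries fitted, the tool, the scaling, the filter, each library left out and the replicate block. Some genes that the rule named are not reported here. No pair of DMSO libraries agreed within sampling noise. The depth was 16.6 to 23.3 M counts per DMSO library.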

Additional observations from a re-analysis of the deposited data

Results flagged for a closer look

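For 5 genes described here, the log2 difference of 12 h against 6 h was different in DMSO cells from its mean over the 6 drug arms, by a test of the interaction (edgeR's quasi-likelihood test). MUC19 and ACTA2 rose more in DMSO cells, while CTH, SLC7A11 and SLC1A4 did not pass in DMSO cells and were lower at 12 h in the mean of the drug arms. CTH, an enzyme that makes cysteine, had 46.8, 45.6 and 45.3 CPM at 6 h and 43.8, 53.3 and 47.3 CPM at 12 h in DMSO cells. Its interaction was 0.65 ± 0.10 on the log2 scale (adjusted p = 0.000348), from 0.07 in DMSO and −0.58 in the drug arms, where it was −0.24 in both bolus arms and between −0.65 and −0.84 in the other 4 arms. It was called under each of 13 alternatives. SLC7A11, the cystine importer, gave 0.56 (adjusted p = 0.0155), from −0.08 and −0.64. The call of SLC7A11 was lost without 6 h replicate 2 or 3 or 12 h replicate 2 or 3, up to an adjusted p of 0.363.

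MUC19 gave 1.49 (adjusted p = 0.0155), from 2.39 in DMSO and 0.90 in the drug arms. Its values were 1.98 and 1.76 in the ibuprofen and ibufenac bolus arms and −0.17 to 1.00 in the other 4. The call of MUC19 was lost without 6 h replicate 2 or 12 h replicate 1 or 2, up to 0.363, and with the 42 libraries at 6 h and 12 h. ACTA2 gave 0.87 (adjusted p = 0.0155), from 1.48 and 0.61, and lost its call without 6 h replicate 2 or 3 or 12 h replicate 2, up to 0.492. SLC1A4, an amino acid transporter gene, gave 0.45 (adjusted p = 0.0438), from 0.14 and −0.31. It was called under 6 of 13 alternatives, with a highest adjusted p of 0.426.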

How the results depend on the processing

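The 739 calls (453 higher, 286 lower) kept their direction in every alternative in which they were called again. With the 9 DMSO libraries alone there were 279 (196 higher, 83 lower), with 1 G2/M, 4 ribosome biogenesis and 1 proteasome genes lower. With trends in GC content and length removed there were 1164 (654 lower), with 13 G2/M and 12 proteasome genes, and with the 6 DMSO libraries alone 11 proteasome genes. The 42 libraries at 6 h and 12 h gave 5 G2/M genes, and 3 genes in the interaction with all drug arms. Without a filter on low counts there were 3 G2/M and 3 proteasome genes, and the interactions gave 452 (bolus arms) and 594 genes (all drug arms). DESeq2 gave 1 and 19 genes there. The cause was not tested. Leaving out single libraries gave 303 to 529 calls, 215 to 395 higher and 88 to 153 lower, 1 to 8 genes in the interaction with all drug arms, 3 to 5 G2/M genes, 2 to 6 ribosome biogenesis genes and 1 to 4 proteasome genes. Replicate numbers were tested as a block although same-numbered libraries did not deviate together (correlations −0.072, −0.005 and −0.03). The replicate block left 734 calls in the fit of 63 libraries and 88 in the fit of the 6 DMSO libraries (73 higher, 15 lower), with 11 p53 targets, 12 further p53 targets and 0 genes of the G2/M, ribosome biogenesis and proteasome lists. The depth of 16.6 to 23.3 M counts limits what can be seen of genes under 1 CPM.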
